A study of Mus musculus with 20 samples.

Results

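Mouse embryos that had received a control small interfering RNA (siControl) were compared at the morula stage and at the late 2-cell stage. The libraries were chosen by their labels alone, as all siControl RNA libraries of the series, which gave 4 of the 20 libraries of the series, 2 at each stage. Superovulated oocytes were fertilised in vitro, electroporated with non-targeting siRNA as one-cell embryos and cultured in KSOM medium, so that both stages carried the same siRNA, electroporation and culture. The siControl morula pools were collected 72 hours after insemination and the siControl late 2-cell pools 36 hours after it, and each library was made from the polyadenylated RNA of 10 embryos with SMART-Seq v4 PLUS. The rest of the series concerns Pcgf5, a Polycomb subunit. It includes embryos that had received siRNA against Pcgf5 (siPcgf5) at these stages, 2 libraries each, and 2 libraries of unperturbed wild-type (WT) 4-cell embryos, which were fertilised in vitro, not electroporated, and collected at 48 hours. Strain, sex and age are not given in the sources used here, and each pool mixes 10 embryos, so variation between embryos could not be seen.

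The mouse egg is silent in transcription and runs on RNA stored during oocyte growth. At the late 2-cell stage the major wave of zygotic genome activation is under way, with a short burst of genes such as Zscan4, while many stored maternal RNAs are still being removed. By the morula stage the blastomeres compact, form junctions and polarise, and the first lineage genes of trophectoderm (the outer layer that builds the placenta) and of the inner cell mass are transcribed. The comparison describes this transition in control embryos.

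The siControl morula libraries held 48572543 and 48876604 summed expected counts, and the siControl late 2-cell libraries held 22435872 and 33757884. Levels are given as CPM (expected counts scaled to a common library size by TMM) or, where genes are set beside each other, as the deposited TPM, which divides by transcript length. Changes are log2 fold changes of CPM, siControl morula over siControl late 2-cell, each with its standard error (SE) from edgeR. Rose, fell, higher and lower are used of genes with an adjusted p under 0.05 in edgeR's quasi-likelihood test. All levels are shares of the polyadenylated RNA in a library. Fewer cells of a type, less RNA per cell and a smaller share of a changing total cannot be told apart. The p-values reflect only how far these libraries spread, since nothing states that the replicates came from separate cultures. The median absolute difference between replicates was 0.24 (log2) in siControl morula and 0.52 in siControl late 2-cell. Stage separated the 8 knockdown libraries along the first principal component, which held 79.4% of the variance. The second held 4.96% and set siControl late 2-cell replicate 1 (94.6) against replicate 2 (-76.84). Replicates of the other groups lay closer together on it. The reason was not tested.

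Of the 24411 genes listed, 16980 passed the filter on low counts. In siControl morula 4220 of them rose (24.9% of genes tested) and 4766 fell (28.1%), relative to siControl late 2-cell. The falls were steeper: the median log2 fold change was 2.13 among genes that rose and -3.70 among genes that fell, and more than 16-fold changes numbered 513 upwards and 2221 downwards. Of the genes that fell, 816 had no count in either siControl morula library, while 96 of those that rose had none in either siControl late 2-cell library. Genes that rose held 85.0% and 84.2% of the TPM of tested genes in siControl morula, against 35.2% and 42.4% in siControl late 2-cell. Genes that fell held 3.6% and 3.9% in siControl morula, against 43.0% and 34.1% in siControl late 2-cell. The siControl groups did not overlap for 6172 genes upwards (36.3%) and 7206 downwards (42.4%).

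The number of rises depends on the scale and the test. The median log2 fold change over all tested genes was -0.34 with TMM, -0.51 with DESeq2 size factors and -0.98 with library size alone. For the 7216 genes with a mean of at least 10 CPM, the log2 ratio of TPM stood 1.01 below the log2 ratio of CPM at the median. A rise of less than about 1 in log2 CPM can therefore be a fall in TPM. The rises made up 47.0% of calls with TMM, 31.4% with library size alone (2876 higher and 6280 lower) and 24.9% with limma on log2(TPM + 1) (2452 higher and 7388 lower). List medians are read below against the -0.34 of all genes.

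The same step was measured in siPcgf5 embryos, in 4 libraries that share no sample with the siControl comparison. There 4162 genes rose (24.5%) and 4787 fell (28.2%). Of the siControl rises 86.6% also rose in siPcgf5 (87.8% of the siPcgf5 rises), and of the siControl falls 85.1% also fell (84.7% of the siPcgf5 falls). Both steps came from the same fit of the 8 libraries, with a shared filter, scaling and spread, so the calls are not fully independent. Only 3 genes were called in opposite directions, 4833427F10Rik, Gm595 and Ndnf, named here after their values were seen. Gm595 had a log2 fold change of -2.13 in siControl and 1.03 in siPcgf5, and the difference did not pass (adjusted p = 0.302, edgeR). 4833427F10Rik and Ndnf stayed under 4 CPM in all 8 libraries. Ndnf lost its siControl call without any 1 of the 4 siControl libraries (adjusted p between 0.0697 and 0.0973, edgeR), and 4833427F10Rik without siControl late 2-cell replicate 1 or 2 or siControl morula replicate 1 (adjusted p between 0.0847 and 0.145, edgeR). Over all genes the difference between the steps passed for 0 of 16980 in edgeR, with 842 at an unadjusted p under 0.05.

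**Figure D1:**
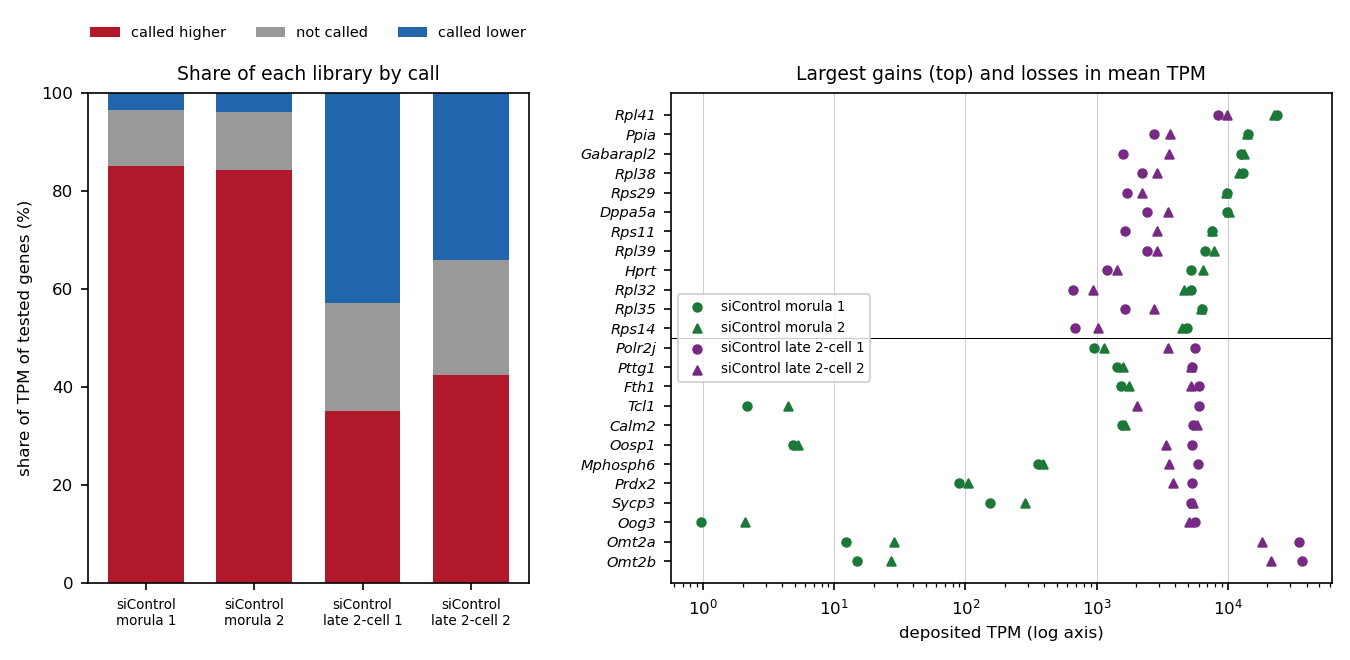
Left, the share of the TPM of tested genes (%) held by genes called higher, not called and called lower in each siControl library. Right, the deposited TPM (log axis) in each of the 4 libraries of the 12 genes with the largest gain and the 12 with the largest loss in mean TPM; genes called higher hold 85.0% and 84.2% of siControl morula and 35.2% and 42.4% of siControl late 2-cell.

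The largest losses in TPM were of oocyte RNAs. Omt2b, an oocyte maturation transcript, had 14.8 and 27.0 TPM in siControl morula, against 36900 and 21400 TPM in siControl late 2-cell, where it was the highest of the 12. Its near-identical neighbour Omt2a had 12.2 and 28.3 TPM in siControl morula and 34800 and 18400 TPM in siControl late 2-cell, and reads could be divided between both. Oog3, an oogenesin expressed in oocytes, had 0.96 and 2.10 TPM in siControl morula, against 5630 and 5050 TPM in siControl late 2-cell (log2 fold change -10.75, SE 0.58, adjusted p = 7.8e-07, edgeR), and reads may also be shared within the Oog family. None of these pairs of libraries overlapped. Oosp1 (-8.69), an oocyte-secreted protein gene, and Tcl1 (-9.21), an AKT co-activator stored in the egg, fell to between 2.17 and 5.27 TPM in siControl morula, against 2050 to 6050 TPM in siControl late 2-cell. Other large losses were of genes with other functions. Prdx2, a peroxiredoxin, had 90.0 and 105 TPM in siControl morula, against 5360 and 3810 TPM in siControl late 2-cell (log2 fold change -4.50, SE 0.29). Sycp3, a protein of the meiotic synaptonemal complex, fell by 3.58, and Mphosph6, a cofactor of the RNA exosome, fell by 2.62, each on the log2 scale. Also among the 12 were Calm2, Fth1, Pttg1 and Polr2j, whose log2 fold changes of CPM were only -0.79, -0.74, -0.84 and -1.04. These are near the median offset of -1.01 of log2 TPM ratios from log2 CPM ratios, so much of their loss in TPM can come from the scale.

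The largest gains in TPM were of housekeeping genes. Rpl41, a ribosomal protein gene, had 23800 and 22700 TPM in siControl morula, against 8440 and 9930 TPM in siControl late 2-cell. Ppia, which encodes cyclophilin A, had 14300 and 14000 TPM in siControl morula, against 2740 and 3660 TPM in siControl late 2-cell (log2 fold change of CPM 3.19, SE 0.24, adjusted p = 3.32e-06, edgeR). Gabarapl2, of the ATG8 family of autophagy, had 12700 and 13300 TPM in siControl morula, against 1590 and 3560 TPM in siControl late 2-cell. The stages did not overlap for any of the 3. Of the 12 largest gains, 8 were cytosolic ribosomal protein genes, and the others were Ppia, Gabarapl2, Dppa5a and Hprt. Dppa5a, an RNA-binding protein of pluripotent cells, had 9900 and 10300 TPM in siControl morula, against 2440 and 3540 TPM in siControl late 2-cell. Hprt, of purine salvage, had 5300 and 6490 TPM in siControl morula, against 1210 and 1430 TPM in siControl late 2-cell.

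The promoters of 4 of these genes are printed because they span the range of CpG content described next. Each runs from 250 bases before to 50 bases after the first listed RefSeq start of the gene (GRCm38.p6), in the direction of transcription. CpG dinucleotides are in capitals. They are Omt2b (chr9:78327780-78328079, plus strand, 1 CpG), Oog3 (chr4:144162602-144162901, minus strand, 1 CpG), Prdx2 (chr8:84969372-84969671, plus strand, 27 CpG) and Ppia (chr11:6415617-6415916, plus strand, 43 CpG).
Omt2b: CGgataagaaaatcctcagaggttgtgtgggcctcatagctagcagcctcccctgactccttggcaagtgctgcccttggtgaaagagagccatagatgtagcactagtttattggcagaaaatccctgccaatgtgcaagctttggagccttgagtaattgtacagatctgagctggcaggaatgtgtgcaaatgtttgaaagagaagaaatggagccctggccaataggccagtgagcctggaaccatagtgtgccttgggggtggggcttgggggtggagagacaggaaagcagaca
Oog3: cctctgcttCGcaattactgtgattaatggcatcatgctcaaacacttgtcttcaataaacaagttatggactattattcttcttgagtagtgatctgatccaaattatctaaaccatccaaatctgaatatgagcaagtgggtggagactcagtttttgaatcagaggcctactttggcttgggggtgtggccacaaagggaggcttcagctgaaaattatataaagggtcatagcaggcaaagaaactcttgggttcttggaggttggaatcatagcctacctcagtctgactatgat
Prdx2: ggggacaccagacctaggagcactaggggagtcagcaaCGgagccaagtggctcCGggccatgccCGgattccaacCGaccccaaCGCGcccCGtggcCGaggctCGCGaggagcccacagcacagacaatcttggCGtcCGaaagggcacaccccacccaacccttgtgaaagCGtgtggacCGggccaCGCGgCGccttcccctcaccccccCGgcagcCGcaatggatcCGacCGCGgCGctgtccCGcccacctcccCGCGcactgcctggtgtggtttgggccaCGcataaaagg
Ppia: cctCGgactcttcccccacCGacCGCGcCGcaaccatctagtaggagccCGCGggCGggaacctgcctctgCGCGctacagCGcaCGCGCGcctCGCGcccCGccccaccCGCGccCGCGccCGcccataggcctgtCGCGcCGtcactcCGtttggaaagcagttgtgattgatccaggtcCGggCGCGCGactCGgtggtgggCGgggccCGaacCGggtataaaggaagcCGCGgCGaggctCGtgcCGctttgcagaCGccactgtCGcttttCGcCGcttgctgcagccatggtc

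Genes were then grouped by the number of CpG in this window, as a description without a test. RefSeq promoters were matched for 13417 tested genes, 81.0% of those off chromosome 18, which was not used here. A gene could have up to 26 promoter sequences, of which only the first listed was used, so other starts were not read. With 0 to 4 CpG, as in Omt2b and Oog3, 10.7% of 2047 genes rose and 39.0% fell (median log2 fold change -2.81). With 15 to 24 CpG, 33.4% of 3828 genes rose and 23.1% fell (median 0.22), and with 25 or more, as in Prdx2 and Ppia, 28% of 4198 rose and 26.3% fell. Prdx2 shows that a promoter rich in CpG was also found among the large losses. With 5 to 14 CpG, 20.9% of 3344 rose and 30.5% fell (median -0.75). Among genes with a mean of at least 10 CPM, 26.2% of 442 genes with 0 to 4 CpG rose and 56.6% fell (median -1.68), against 48.7% and 23.5% of 2040 genes with 15 to 24 CpG (median 0.66). There, 42.3% of 1111 genes with 5 to 14 CpG and 38.8% of 2276 with 25 or more rose, in the other order than among all tested genes. Level, gene family and CpG content move together across genes, and their parts were not tested.

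Short sequence motifs were searched in these windows on both strands. GGGCGG, the GC box bound by SP factors, was found in 62.2% of promoters of genes that rose, 53.2% of those that fell and 38.7% of those that fell by more than 16-fold. It was in 50.1% of those that rose by more than 16-fold, against 56.8% of tested genes and 35.9% of all promoters. TATAAA was found in 7.05% of genes that rose, 10.1% of genes that fell and 14% of those that fell by more than 16-fold. It was in 11.4% of those that rose by more than 16-fold, against 8.88% of tested genes and 14.2% of all promoters. For both motifs the genes that rose by more than 16-fold thus stood on the other side of all genes that fell than the rises as a whole. CACGTG, an E-box, was found in 11.5% of genes that rose and 8.04% of those that fell, against 9.56% of tested genes. The cores GGATTA, read by OTX and OBOX homeodomains, and GGAATG, read by TEAD factors, differed little between rises and falls (5.93% and 6.12%, and 12.2% and 12.4%). GC boxes overlap CpG dinucleotides by their letters.

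Chromosome X was set beside the autosomes in the same way, without a test. Of 732 tested genes on chromosome X, 14.3% rose and 42.5% fell (median log2 fold change -1.56), against 25.4% and 27.4% of 16161 autosomal genes (median -0.29). Among genes with a mean of at least 10 CPM the X-linked shares were 28.5% and 46.0% (302 genes), against 43.1% and 29.0% of autosomal genes. In siPcgf5 14.9% of X-linked genes rose and 43.6% fell. The summed TPM of X-linked genes was 38301 and 44833 in siControl morula, against 43003 and 43829 in siControl late 2-cell, so that the sums overlapped. Xist, the RNA that coats the inactive X chromosome, had 24.4 and 48.0 CPM in siControl morula, against 4.22 and 3.88 CPM in siControl late 2-cell (log2 fold change 3.16, SE 0.56, adjusted p = 0.000755, edgeR). The sexes in a pool are not known, and the part of Xist in the X-linked shares was not tested.

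**Figure D2:**
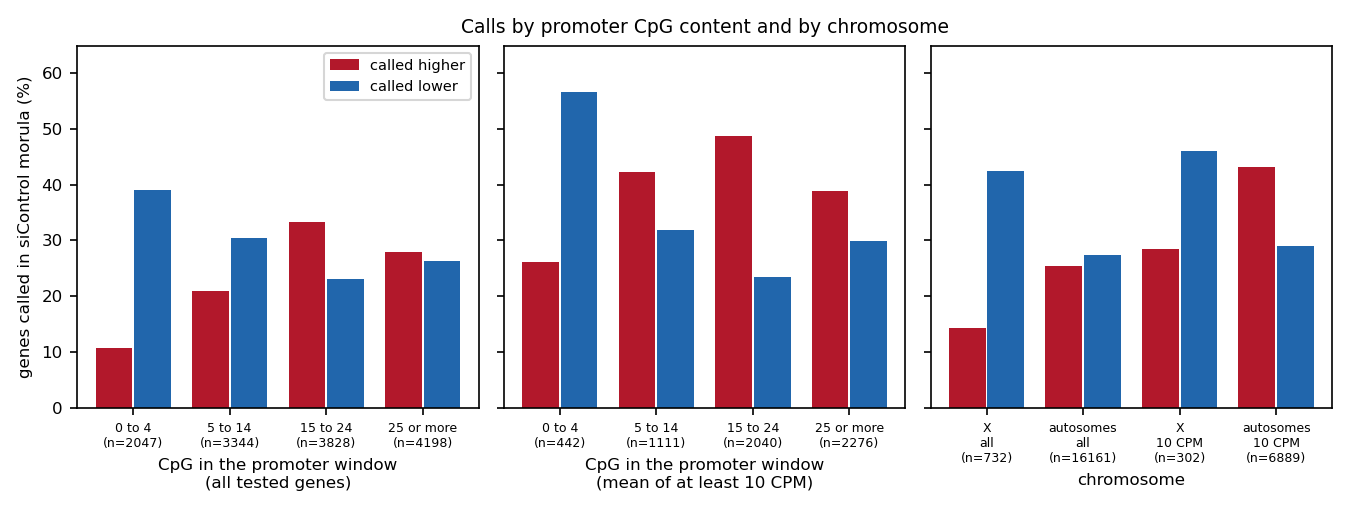
Genes called higher and lower (%) in siControl morula over siControl late 2-cell, by the number of CpG in the 300-base promoter window for all matched genes (left) and for those with a mean of at least 10 CPM (middle), and for chromosome X and autosomes (right), with the number of genes under each pair of bars. Falls outnumber rises at 0 to 4 CpG (39.0% and 10.7%) and on chromosome X (42.5% and 14.3%).

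Genes were also read in 48 lists of pathways and cell types, in which 1711 of 1799 listed genes were tested. The lists that rose most widely were those of ribosomal proteins, respiratory complexes, ATP synthase and the proteasome. Those that fell most widely were of oocyte and 2-cell genes. Counts of members called are read beside the 24.9% of all tested genes that rose and the 28.1% that fell. The sign of the median was the same under 5 scalings and tools for 35 lists, above 0 for 19 and below 0 for 16. For the other 13 it depended on the scaling, and the lowest value is given with each of those described below. Where the share of rises among a list's calls moved by over 10 percentage points, its counts with limma on log2(TPM + 1) follow, marked as in TPM. In siPcgf5, 83 of 85 cytosolic ribosomal protein genes rose (median 2.65), 25 of 32 2-cell activation genes fell (median -4.39), and 18 of 31 pluripotency genes rose and 6 fell.

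**Figure D3:**
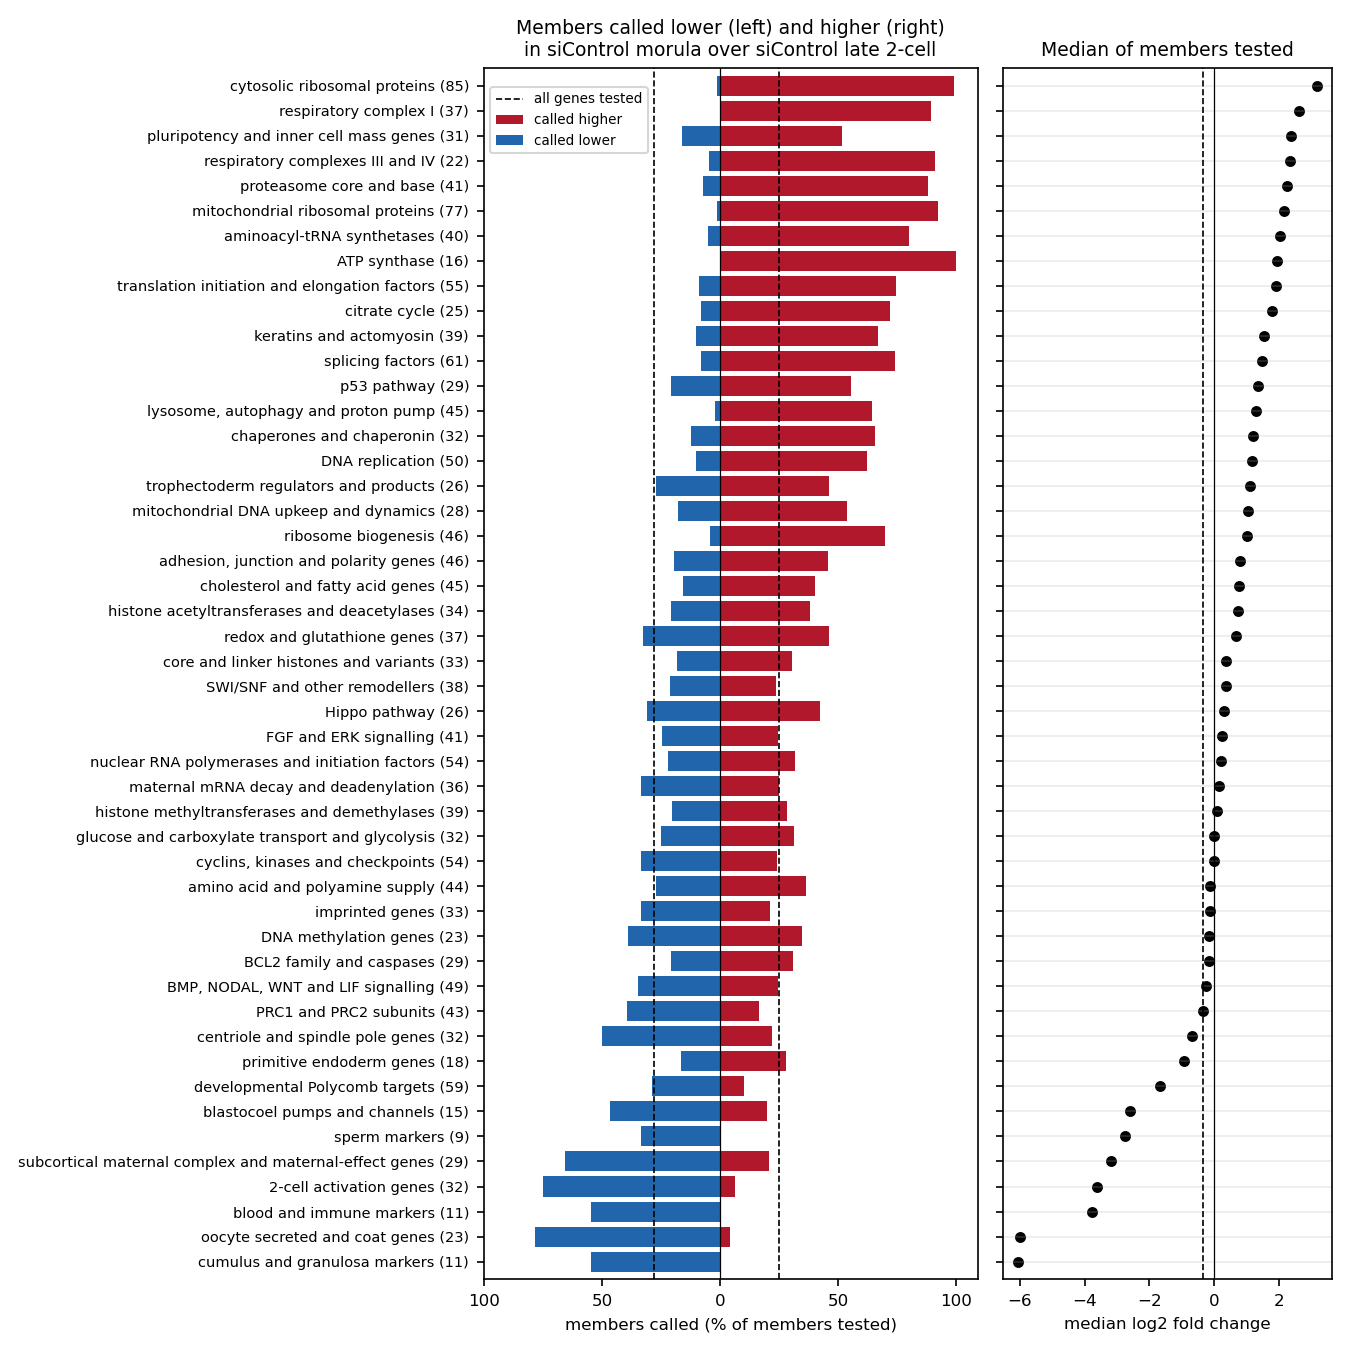
Left, the share of tested members (%) called higher (to the right) and lower (to the left) in siControl morula over siControl late 2-cell for each list, with the number tested in parentheses and dashed lines at 24.9% and 28.1%, the shares over all genes. Right, the median log2 fold change of the members, with a dashed line at -0.34; the median of cytosolic ribosomal proteins is 3.18 and that of oocyte secreted and coat genes -6.00, while medians near 0 change sign under other scalings.

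Oocyte genes mostly fell. Of 23 tested genes for secreted and coat proteins of the oocyte, 18 fell and 1 rose (median -6.00). Bmp15, a growth factor of the oocyte, had 0.971 and 1.88 CPM in siControl morula, against 733 and 385 CPM in siControl late 2-cell (log2 fold change -8.61, SE 0.53, adjusted p = 1.34e-06, edgeR). Its partner Gdf9 had 1.46 and 0.966 CPM in siControl morula, against 115 and 63.6 CPM in siControl late 2-cell. The stages stood apart in both. Zp2, of the egg coat, fell by 5.65, and Oosp3 by 9.0, on the log2 scale. The exception was Cd9, a tetraspanin needed for sperm and egg fusion and also carried by embryonic cells, which had 1740 and 1660 CPM in siControl morula, against 213 and 247 CPM in siControl late 2-cell (log2 fold change 2.89, SE 0.21).

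The maternal-effect list split. Of 29 genes of the subcortical maternal complex, a protein assembly of eggs, and of other maternal-effect genes, 19 fell and 6 rose (median -3.18). Nlrp9a had 0.230 and 0 CPM in siControl morula, against 252 and 188 CPM in siControl late 2-cell, and Nlrp9c, Nlrp14 and Nlrp5 had log2 fold changes of -9.17, -5.78 and -5.80. Khdc3, also called Filia, a subunit of the same complex, moved the other way, with 709 and 627 CPM in siControl morula, against 12.7 and 8.99 CPM in siControl late 2-cell (log2 fold change 5.94, SE 0.31, adjusted p = 6.56e-07, edgeR). Its siPcgf5 log2 fold change was 6.23. Trim28, a corepressor that guards imprints, had 252 and 197 CPM in siControl morula, against 28.7 and 34.2 CPM in siControl late 2-cell. Dppa3, also called Stella, had 11800 and 11100 CPM in siControl morula, against 5140 and 5820 CPM in siControl late 2-cell, a rise of 1.07 (SE 0.23) in CPM, while its TPM of 14800 and 14100 in siControl morula overlapped the 14000 and 14600 in siControl late 2-cell.

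Of 32 tested 2-cell activation genes, 24 fell and 2 rose (median -3.63). Zscan4f had no count in siControl morula, against 620 and 633 CPM in siControl late 2-cell, which is at least 16300-fold lower with a floor of 3 counts over the siControl morula group. Zscan4c and Zscan4d fell by 11.52 and 10.10 on the log2 scale. Usp17lc had 0.895 and 1.27 CPM in siControl morula, against 22.3 and 22.5 CPM in siControl late 2-cell. Reads could be divided among near-identical copies in the Zscan4, Usp17l, Tdpoz, Tcstv and Obox families. Zfp352 had 32.2 and 10.4 CPM in siControl morula, against 292 and 427 CPM in siControl late 2-cell, but did not pass (adjusted p = 0.0633, edgeR). The 2 that rose were Eif1a, a translation initiation factor with a near-identical X-linked copy (log2 fold change 1.34), and Sp110, a nuclear body protein (1.14). Sp110 had 337 and 365 TPM in siControl morula, against 321 and 321 TPM in siControl late 2-cell.

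Genes of the machinery that removes maternal RNA were called in shares near those of all genes tested, 24.9% higher and 28.1% lower. Of 36 tested genes 9 rose (25%) and 12 fell (33.3%), or 4 and 19 in TPM, with a median of 0.14 that went down to -0.72 on log2(TPM + 1). Btg4, the adaptor that brings the CCR4-NOT deadenylase to maternal RNA, had 0.690 and 1.75 CPM in siControl morula, against 1710 and 406 CPM in siControl late 2-cell (log2 fold change -9.75, SE 0.88, adjusted p = 2.15e-05, edgeR). The 2 siControl late 2-cell libraries differed widely for this gene, but both stood far above siControl morula. They differed for other genes too, in both directions. Replicate 1 was higher than replicate 2 for Bmp15 (733 and 385 CPM) and lower for Gabarapl2 (741 and 1810 CPM). The deadenylase subunit Cnot7 fell by 2.63 and the decapping enzyme gene Dcp2 by 3.75 on the log2 scale. Rqcd1, a CCR4-NOT subunit now called Cnot9, rose by 2.07.

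Related genes with an oocyte or earlier form and a later form were read as pairs. Not every earlier form is of oocytes, and Eif1a is also among the 2-cell activation genes. Of the 22 pairs, the earlier form fell and the later form rose in 10, and in 5 of these the later form already held most of the pair's TPM in both siControl late 2-cell libraries. Some of these rises held only in CPM: with limma on log2(TPM + 1), H1f0 stood at -0.04 and Wee1 at -0.03. Ddx3x, the later form beside Ddx4, rose by 0.85 in CPM. Its TPM of 92.5 and 97.7 in siControl morula overlapped the 119 and 93.7 in siControl late 2-cell. In 6 pairs the earlier form fell while the later one did not pass. In 2 both rose, in 1 only the later form rose, and in 3 neither passed. Wee2, the oocyte kinase that inhibits CDK1, had 0.332 and 0.0763 CPM in siControl morula, against 639 and 344 CPM in siControl late 2-cell (log2 fold change -11.21, SE 0.63). Wee1, its somatic counterpart, had 32.9 and 26.3 CPM in siControl morula, against 13.7 and 16.3 CPM in siControl late 2-cell. Its rise of 0.98 did not pass without siControl late 2-cell replicate 1 (0.87, adjusted p = 0.058, edgeR) or without siControl morula replicate 1 (0.82, adjusted p = 0.115, edgeR). In TPM, Wee1 made up 98.8% and 99.7% of the pair in siControl morula and 1.76% and 3.80% in siControl late 2-cell.

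Shares of the other pairs showed how complete the change was. H1f0, a linker histone, made up 98.0% and 97.1% of its pair with the oocyte form H1foo in siControl morula, against 11.4% and 33.7% in siControl late 2-cell. Klf5, a factor of the inner cell mass and trophectoderm, made up 90.5% and 96.0% of its pair with Klf17 in siControl morula, against 11% and 16% in siControl late 2-cell. Cpeb2 made up 90.9% and 98.5% of its pair with Cpeb1, which controls polyadenylation in the cytoplasm of oocytes, in siControl morula, against 23.4% and 32.7% in siControl late 2-cell. In others the later form was already dominant: Npm1 made up 99.9% and 99.9% of its pair with the oocyte nucleoplasmin Npm2 in siControl morula and 85.6% and 93.2% in siControl late 2-cell. Ldhb, the lactate dehydrogenase subunit of oocytes, had 5.04 and 9.23 CPM in siControl morula, against 663 and 364 CPM in siControl late 2-cell. Ldha, the other subunit, had 16.5 and 15.5 CPM in siControl morula and 14 and 17.8 CPM in siControl late 2-cell, which overlapped. The TATA-binding protein paralog of oocytes, Tbpl2, had no count in siControl morula, against 8.56 and 3.62 CPM in siControl late 2-cell, at least 175-fold lower, while Tbp had 89.2 and 98.2 CPM in siControl morula and 79.1 and 104 CPM in siControl late 2-cell. Tet3, the 5-methylcytosine dioxygenase of eggs, fell by 2.78 on the log2 scale. Tet1 rose by 1.06, but did not pass without siControl late 2-cell replicate 2 (0.73, adjusted p = 0.166, edgeR) or siControl morula replicate 1 (0.70, adjusted p = 0.226, edgeR).

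**Figure D4:**
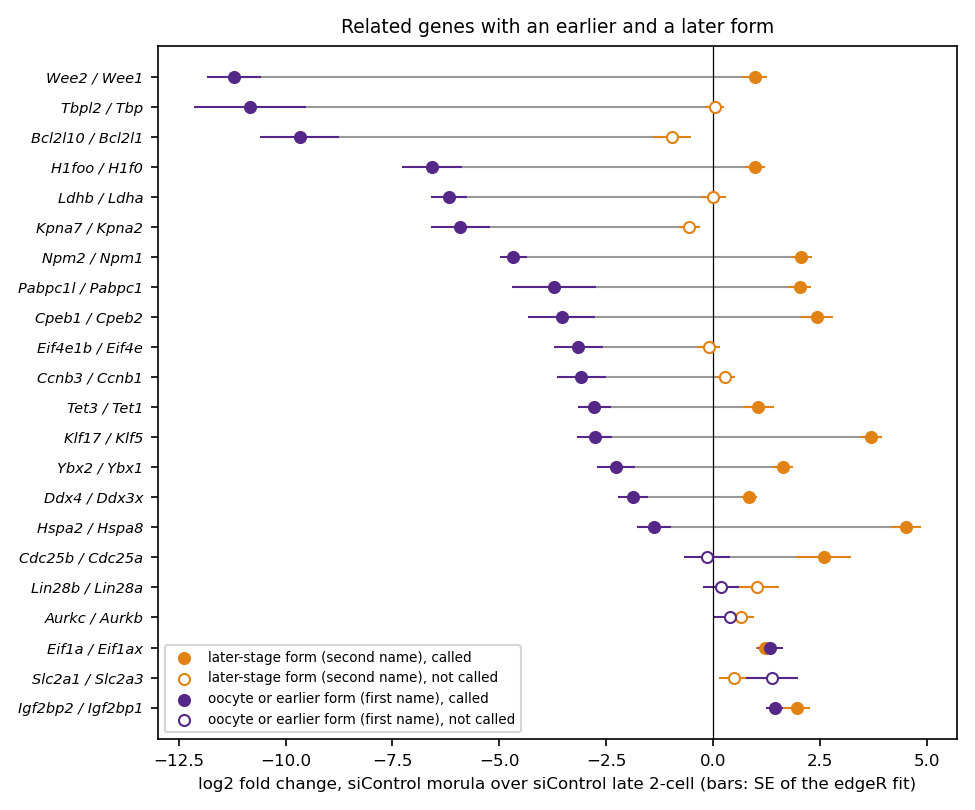
Log2 fold change of CPM, siControl morula over siControl late 2-cell, of the earlier and the later form in 22 pairs of related genes, with bars for the SE and open circles for genes that did not pass. The earlier form falls and the later form rises in 10 pairs, as in Klf17 (-2.77) and Klf5 (3.70). The rises of Wee1 and H1f0 (0.98 each) turn to -0.03 and -0.04 on log2(TPM + 1). The stages of Ddx3x (0.85) overlap in TPM.

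The protein synthesis machinery took a larger share of the RNA. Of 85 cytosolic ribosomal protein genes 84 rose, with a median log2 fold change of 3.18, and the 1 that fell was Rpl3l, a form of striated muscle (0.792 and 0.788 CPM in siControl morula, against 8.78 and 9.96 CPM in siControl late 2-cell). Together they held 250000 and 239000 TPM in siControl morula, against 59400 and 80000 in siControl late 2-cell. Rpl26 had the highest rise of the list, with 682 and 584 CPM in siControl morula, against 23.0 and 26.6 CPM in siControl late 2-cell (log2 fold change 4.67, SE 0.23, adjusted p = 6.46e-07, edgeR). Rpl5 had 4770 and 4150 CPM in siControl morula, against 263 and 338 CPM in siControl late 2-cell, and Rpl8 rose by 4.20 on the log2 scale. Ribosomal protein genes have many processed pseudogenes, with which reads could be shared.

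Factors that build and feed the ribosome also rose in CPM, less so in TPM for ribosome biogenesis. Of its 46 genes 32 rose and 2 fell (median 1.00), but 12 rose and 7 fell in TPM (median 0.02). Among the rises were the nucleolar proteins Ncl (2270 and 2220 CPM in siControl morula, against 519 and 642 CPM in siControl late 2-cell) and Fbl (log2 fold change 2.76). Of 55 translation factors 41 rose and 5 fell (median 1.91, 30 and 9 in TPM). Eef1b2, an elongation factor subunit, had 556 and 530 CPM in siControl morula, against 44.5 and 45.7 CPM in siControl late 2-cell (log2 fold change 3.59, SE 0.21). Those that fell included Eif4e3 (-5.84), a cap-binding protein, and Eif5a2 (-3.24), the second eIF5A gene. Of 40 genes for aminoacyl-tRNA synthetases and their partners 32 rose and 2 fell (median 2.03, 20 and 4 in TPM). Aimp1, a scaffold of the synthetase complex, had 299 and 337 CPM in siControl morula, against 7.75 and 13.7 CPM in siControl late 2-cell. Fars2, the mitochondrial synthetase for phenylalanine, fell to 4.09 and 6.20 CPM in siControl morula, against 200 and 134 CPM in siControl late 2-cell.

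Genes of the respiratory complexes and ATP synthase rose nearly without exception in CPM, less so in TPM. In complex I, which oxidises NADH, 33 of 37 genes rose (median 2.63, 30 higher and 4 lower in TPM). All 16 ATP synthase genes rose (median 1.93, 12 higher and 0 lower in TPM). Of 22 genes of complexes III and IV 20 rose and 1 fell (median 2.35, 16 and 2 in TPM). Ndufa3, of complex I, had 313 and 281 CPM in siControl morula, against 11.2 and 10.8 CPM in siControl late 2-cell (log2 fold change 4.76, SE 0.24, adjusted p = 6.46e-07, edgeR). Uqcrc1, a core protein of complex III, had 214 and 220 CPM in siControl morula, against 13.0 and 13.1 CPM in siControl late 2-cell. The catalytic ATP synthase subunit Atp5b rose by 1.61 on the log2 scale. Of 77 mitochondrial ribosomal protein genes 71 rose and 1 fell (median 2.17, 53 and 6 in TPM), with Mrps31 at 249 and 272 CPM in siControl morula, against 5.43 and 5.56 CPM in siControl late 2-cell. The list of mitochondrial DNA upkeep and dynamics did not share this, with 15 of 28 genes higher and 5 lower (median 1.05), and 8 and 10 in TPM. Genes encoded in the mitochondrial genome are not analysed here.

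The citrate cycle rose with them, with 18 of 25 genes higher and 2 lower (median 1.80, 15 and 4 in TPM). Suclg1 rose by 3.83 and Sdhb, a succinate dehydrogenase subunit, by 3.76, on the log2 scale. The 2 that fell were genes of malic enzymes. Me1 had 38.9 and 50.9 CPM in siControl morula, against 231 and 132 CPM in siControl late 2-cell, and Me2 fell by 2.20 on the log2 scale. In glucose and carboxylate transport and glycolysis 10 of 32 rose (31.2%) and 8 fell (25%), near the 24.9% and 28.1% of all genes. In TPM 6 rose and 16 fell, and the median of 0.01 went down to -0.70 on log2(TPM + 1). Aldoa, an aldolase, rose by 2.48 and Pgam1, a phosphoglycerate mutase, by 2.7. Pdk3, a kinase that inhibits pyruvate dehydrogenase, had 3.27 and 7.40 CPM in siControl morula, against 62.5 and 42.5 CPM in siControl late 2-cell.

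Protein quality control rose in the cytosol. Of 41 proteasome genes 36 rose and 3 fell (median 2.26). Psma7, of the core ring, had 1460 and 1550 CPM in siControl morula, against 56.9 and 69.4 CPM in siControl late 2-cell (log2 fold change 4.58, SE 0.23). The activators Psme2 and Psme4 fell by 1.60 and 2.02 on the log2 scale. Of 32 chaperone genes 21 rose and 4 fell (median 1.19, 15 and 10 in TPM). Hspa8, the constitutive HSP70, had 10400 and 9650 CPM in siControl morula, against 295 and 585 CPM in siControl late 2-cell (log2 fold change 4.51, SE 0.35, adjusted p = 3.61e-06, edgeR). Cct7, of the chaperonin, had 732 and 682 CPM in siControl morula, against 28.8 and 33.7 CPM in siControl late 2-cell. Among the exceptions were 2 chaperones of the endoplasmic reticulum: Hspa5, or BiP, had 124 and 112 CPM in siControl morula, against 396 and 411 CPM in siControl late 2-cell (log2 fold change -1.77, SE 0.19), and Hsp90b1 fell by 1.34. Of 45 lysosome, autophagy and proton pump genes 29 rose and 1 fell (median 1.29, 19 and 13 in TPM), with Lamp1, of the lysosomal membrane, at 368 and 311 CPM in siControl morula, against 22.9 and 30.3 CPM in siControl late 2-cell.

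Of 61 splicing factor genes 45 rose and 5 fell (median 1.48, 27 and 15 in TPM). Snrpb, of the core particle, had 784 and 710 CPM in siControl morula, against 66.1 and 68.9 CPM in siControl late 2-cell, and Sf3b4 of the U2 particle rose by 4.29 on the log2 scale. The regulators Ptbp2 and Esrp1 fell by 3.66 and 2.08. Of 54 genes of RNA polymerases and their initiation factors 17 rose (31.5%) and 12 fell (22.2%), against 24.9% and 28.1% of all genes. In TPM 5 rose and 29 fell, and the median of 0.21 went down to -0.62 on log2(TPM + 1). Taf6 rose by 3.03 and Taf3 fell by 2.94, both subunits of TFIID.

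Of 50 DNA replication genes 31 rose and 5 fell (median 1.16, 18 and 11 in TPM). Tyms, which makes thymidylate, had 869 and 918 CPM in siControl morula, against 43.5 and 67.1 CPM in siControl late 2-cell (log2 fold change 4.02, SE 0.27, adjusted p = 1.92e-06, edgeR). Rfc2, of the clamp loader, rose by 3.36. The origin recognition genes Orc5 and Orc6 fell, Orc6 with 407 and 426 CPM in siControl morula, against 1160 and 1240 CPM in siControl late 2-cell. Of 54 cyclin, kinase and checkpoint genes 13 rose (24.1%) and 18 fell (33.3%), near the 24.9% and 28.1% of all genes. In TPM 6 rose and 29 fell, and the median of 0.00 went down to -0.82 on log2(TPM + 1). Cdk4 rose by 2.99, while E2f5, a repressor of the E2F family, had 8.74 and 6.69 CPM in siControl morula, against 387 and 247 CPM in siControl late 2-cell. Of 32 centriole and spindle pole genes 16 fell and 7 rose (median -0.68, 20 and 2 in TPM). Mouse embryos lack centrioles through their first divisions. Cep97, which restrains cilia, had 9.92 and 8.39 CPM in siControl morula, against 80.5 and 118 CPM in siControl late 2-cell, and Camsap2, which binds free microtubule minus ends, fell by 3.12.

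The p53 list held steep falls and many rises. Mdm4, which inhibits p53, had 98.0 and 75.4 CPM in siControl morula, against 5630 and 6110 CPM in siControl late 2-cell (log2 fold change -6.08, SE 0.26, adjusted p = 5.56e-07, edgeR). Of 29 genes 16 rose and 6 fell (median 1.36, 12 and 11 in TPM). Targets of p53 among the rises were Cdkn1a, the cell cycle inhibitor p21 (424 and 412 CPM in siControl morula, against 75.5 and 53.7 CPM in siControl late 2-cell), Ccng1 (2.86), Bax, which permeabilises mitochondria (2.94), and Phlda3, an AKT inhibitor (29.0 and 31.2 CPM in siControl morula, against 0 and 0.0373 CPM in siControl late 2-cell). Rrm2b, another p53 target, had 4.88 and 5.52 CPM in siControl morula, against 143 and 94.8 CPM in siControl late 2-cell. Of 29 BCL2 family and caspase genes 9 rose (31%) and 6 fell (20.7%), against 24.9% and 28.1% of all genes (median -0.16, 7 and 14 in TPM). Casp6 was higher by 4.10 and Casp8 lower by 7.70 on the log2 scale.

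Chromatin regulators changed by member more than by list. Brdt, a bromodomain protein of germ cells, had 41.7 and 18.4 CPM in siControl morula, against 2420 and 1830 CPM in siControl late 2-cell (log2 fold change -6.14, SE 0.55). Smarca2, the BRM ATPase of the SWI/SNF remodeller, had 17 and 18.1 CPM in siControl morula, against 948 and 694 CPM in siControl late 2-cell (log2 fold change -5.55, SE 0.39, adjusted p = 2.15e-06, edgeR). Of 34 acetylation genes 13 rose and 7 fell (5 and 15 in TPM, median 0.73, down to -0.15 on log2(TPM + 1)). Of 38 remodeller genes 9 rose (23.7%) and 8 fell (21.1%), near the 24.9% and 28.1% of all genes (6 and 16 in TPM, median 0.37, down to -0.49). Of 39 histone methylation genes 11 rose (28.2%) and 8 fell (20.5%), also near those shares (7 and 21 in TPM, median 0.09, down to -0.62). Hat1, which acetylates new histone H4, rose by 3.04. Histone H2A variants H2afx and H2afj rose by 4.17 and 2.02. Of 33 histone genes 10 rose (30.3%) and 6 fell (18.2%), against 24.9% and 28.1% of all genes (4 and 13 in TPM, median 0.38, down to -0.48). They were read in polyadenylated RNA, where most replication-dependent histone messages are under-represented.

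Of 43 Polycomb genes 17 fell and 7 rose (median -0.36, 28 and 6 in TPM). Canonical PRC1 is only a form of PRC1, the complex that places ubiquitin on histone H2A. Its subunit gene Bmi1 had 32.6 and 34.3 CPM in siControl morula, against 1270 and 1250 CPM in siControl late 2-cell (log2 fold change -5.23, SE 0.24, adjusted p = 5.87e-07, edgeR). Phc2, of the same complex, fell by 4.16, and Usp16, which removes that ubiquitin, by 1.55. The PRC2 genes Eed and Jarid2 rose, Jarid2 with 223 and 207 CPM in siControl morula, against 20.2 and 22.2 CPM in siControl late 2-cell. Pcgf5 itself had 243 and 165 CPM in siControl morula, against 310 and 806 CPM in siControl late 2-cell, a fall of 1.45 that did not pass without siControl late 2-cell replicate 2 (-0.65, adjusted p = 0.138, edgeR) or siControl morula replicate 2 (-1.19, adjusted p = 0.109, edgeR). Of 59 tested developmental Polycomb targets 6 rose (10.2%, against 24.9% of all genes) and 17 fell (28.8%, against 28.1%), with a median of -1.66. Tbx20 had 51.6 and 53.8 CPM in siControl morula, against 4.20 and 6.04 CPM in siControl late 2-cell, and Hoxa7 had 0.0256 and 0 CPM in siControl morula, against 24.2 and 9.25 CPM in siControl late 2-cell. In the DNA methylation list 8 of 23 genes rose (34.8%) and 9 fell (39.1%), against 24.9% and 28.1% of all genes (median -0.15, 2 and 12 in TPM). Tet2 was higher by 4.33 and Zfp57, which guards imprints, lower by 3.18.

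Among pluripotency genes 16 of 31 were higher and 5 lower (median 2.36, 14 and 8 in TPM). Tfcp2l1 had 134 and 121 CPM in siControl morula, against 8.31 and 5.11 CPM in siControl late 2-cell (log2 fold change 4.24, SE 0.31, adjusted p = 2.65e-06, edgeR). Nanog had 51.1 and 24.1 CPM in siControl morula, against 1.26 and 3.17 CPM in siControl late 2-cell (log2 fold change 4.11, SE 0.52). Pou5f1, which encodes OCT4, had 63.7 and 47.4 CPM in siControl morula, against 9.52 and 7.13 CPM in siControl late 2-cell (log2 fold change 2.74, SE 0.30). The stages did not overlap in any of these. Fgf4, the signal by which inner cells induce primitive endoderm, fell, with 5.44 and 4.98 CPM in siControl morula, against 21.5 and 19.5 CPM in siControl late 2-cell (log2 fold change -1.97, SE 0.34).

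Among trophectoderm genes 12 of 26 rose and 7 fell (median 1.11), but 7 rose and 10 fell in TPM (median 0.30). Ly6a, a surface protein, had 359 and 584 CPM in siControl morula, against 3.97 and 4.59 CPM in siControl late 2-cell (log2 fold change 6.79, SE 0.39, adjusted p = 9.1e-07, edgeR), and Dab2, an endocytic adaptor, had 356 and 503 CPM in siControl morula, against 38.5 and 24.1 CPM in siControl late 2-cell. Cdx2, the trophectoderm regulator, was low but present, with 3.78 and 3.79 CPM in siControl morula, against 0.0674 and 0 CPM in siControl late 2-cell. Gata3 had 45.8 and 35.7 CPM in siControl morula, against 17.3 and 8.25 CPM in siControl late 2-cell, a rise of 1.67 that did not pass without siControl late 2-cell replicate 2 (1.19, adjusted p = 0.149, edgeR) or siControl morula replicate 1 (1.49, adjusted p = 0.0962, edgeR). Id2 and Gata2 went the other way, Id2 with 24.4 and 69.6 CPM in siControl morula, against 246 and 275 CPM in siControl late 2-cell. Of 18 primitive endoderm genes 5 rose (27.8%) and 3 fell (16.7%), against 24.9% and 28.1% of all genes (median -0.93, 2 and 7 in TPM). Gata6, which specifies that lineage, had the highest rise of the list, with 194 and 176 CPM in siControl morula, against 5.91 and 6.01 CPM in siControl late 2-cell (log2 fold change 4.96, SE 0.26, adjusted p = 7.35e-07, edgeR). Lrp2, an endocytic receptor, rose by 2.79, and Srgn, a proteoglycan, fell by 6.60.

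The Hippo pathway ties cell position to lineage, and 11 of its 26 genes rose while 8 fell (7 and 11 in TPM), with a median of 0.30 that went down to -0.35 with library size alone. The angiomotin genes rose: Amot had 34.3 and 44.1 CPM in siControl morula, against 5.21 and 5.75 CPM in siControl late 2-cell, and Amotl2 had 24.5 and 27.0 CPM in siControl morula, against 1.5 and 2.01 CPM in siControl late 2-cell. The paired coactivators parted, with Wwtr1 (TAZ) higher by 1.89 (SE 0.22) and Yap1 lower by 1.22 (SE 0.23). So did the paired kinases, with Stk4 at 109 and 137 CPM in siControl morula, against 39.1 and 52.0 CPM in siControl late 2-cell, and Stk3 at 9.0 and 8.62 CPM in siControl morula, against 66.9 and 41.0 CPM in siControl late 2-cell.

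Of 46 adhesion, junction and polarity genes 21 rose and 9 fell (11 and 16 in TPM), with a median of 0.79 that went down to -0.07 on log2(TPM + 1). Gja1, the gap junction protein connexin 43, had 303 and 321 CPM in siControl morula, against 6.04 and 20.4 CPM in siControl late 2-cell (log2 fold change 4.57, SE 0.50). Cldn7, a tight junction claudin, had 174 and 149 CPM in siControl morula, against 17.2 and 10.3 CPM in siControl late 2-cell, and Cdh1, the cadherin of compaction, had 70.7 and 55.3 CPM in siControl morula, against 12 and 14.4 CPM in siControl late 2-cell. The polarity kinase Prkcz rose by 2.96, and the polarity scaffold Mpp5 fell by 2.53. Of 39 keratin and actomyosin genes 26 rose and 4 fell (median 1.54, 16 and 8 in TPM). Pfn1, which feeds actin filaments, had 1180 and 1030 CPM in siControl morula, against 87.3 and 90.8 CPM in siControl late 2-cell (log2 fold change 3.63, SE 0.23), and Arpc1b of the Arp2/3 complex rose by 3.77. Rock1, a kinase that activates myosin, had 79.4 and 96.1 CPM in siControl morula, against 555 and 596 CPM in siControl late 2-cell.

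Of the pumps and channels that later fill the blastocoel 3 of 15 rose and 7 fell (2 and 9 in TPM, median -2.59, or -2.01 with genes at 0 set to their bounds). Aqp3, a water channel, had 48.4 and 51.8 CPM in siControl morula, against 0.831 and 0.485 CPM in siControl late 2-cell (log2 fold change 6.21, SE 0.41, adjusted p = 1.68e-06, edgeR). Atp1b1, a subunit of the sodium pump, fell, with 14.2 and 17.3 CPM in siControl morula, against 38.4 and 45.7 CPM in siControl late 2-cell. The stage markers followed the labels with exceptions: of 10 morula markers 9 rose, and Lgals3 fell by 1.46, a call lost without siControl late 2-cell replicate 2 (-1.15, adjusted p = 0.0729, edgeR) or siControl morula replicate 1 (-0.94, adjusted p = 0.127, edgeR).

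**Figure D5:**
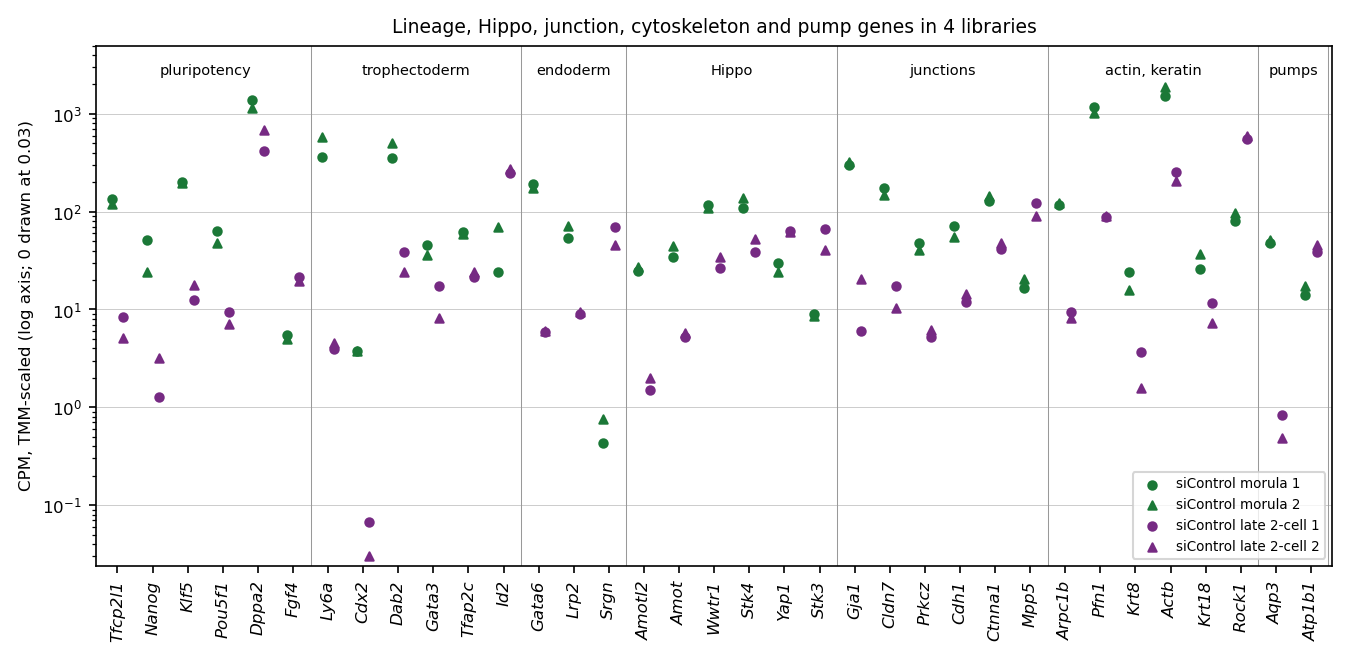
CPM (TMM-scaled, log axis, 0 drawn at 0.03) of lineage, Hippo, junction, cytoskeleton and pump genes in the 2 siControl morula libraries (green) and the 2 siControl late 2-cell libraries (purple). Gata6 stands at 194 and 176 CPM in siControl morula and at 5.91 and 6.01 CPM in siControl late 2-cell, while Fgf4, Id2, Yap1, Stk3, Mpp5, Rock1 and Atp1b1 are lower in siControl morula.

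The signalling lists stood near the shares of all genes tested, 24.9% higher and 28.1% lower. In FGF and ERK signalling 10 of 41 genes rose (24.4%) and 10 fell (24.4%), or 6 and 16 in TPM. The median of 0.25 went down to -0.52 on log2(TPM + 1). The feedback inhibitors Spry2 and Spry4 moved apart, Spry2 with 36.4 and 32.2 CPM in siControl morula, against 1.86 and 2.76 CPM in siControl late 2-cell, and Spry4 with 1.66 and 0.534 CPM in siControl morula, against 117 and 66.7 CPM in siControl late 2-cell. Mapk3, which encodes ERK1, fell by 4.14 on the log2 scale. In BMP, NODAL, WNT and LIF signalling 12 of 49 rose (24.5%) and 17 fell (34.7%), with a median of -0.26 (6 and 24 in TPM). Jak2, the kinase behind cytokine receptors, had 6.11 and 6.0 CPM in siControl morula, against 656 and 627 CPM in siControl late 2-cell (log2 fold change -6.73, SE 0.27, adjusted p = 4.17e-07, edgeR). Tdgf1, or Cripto, a NODAL co-receptor, had 87.0 and 95.2 CPM in siControl morula, against 2.18 and 3.32 CPM in siControl late 2-cell, and Id3, a target of BMP, rose by 2.96. Of 33 tested imprinted genes 7 rose (21.2%) and 11 fell (33.3%), with a median of -0.14 (5 and 14 in TPM). Among them Igf2r was higher by 3.20 and Mest lower by 5.37.

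Redox and lipid genes held steep single changes. In the redox list 17 of 37 genes rose and 12 fell (13 and 16 in TPM), with a median of 0.66 that went down to -0.40 on log2(TPM + 1). Gsto1 had 1090 and 923 CPM in siControl morula, against 45.5 and 53.1 CPM in siControl late 2-cell, and Gstm1 had 5.11 and 8.90 CPM in siControl morula, against 165 and 184 CPM in siControl late 2-cell, both glutathione transferases. Prdx3, the mitochondrial peroxiredoxin, rose by 3.94, opposite to Prdx2. Among cholesterol and fatty acid genes 18 of 45 rose and 7 fell (10 and 15 in TPM), with a median of 0.76 that went down to -0.14 on log2(TPM + 1). Cd36, a fatty acid transporter, had no count in siControl morula, against 71.1 and 62.0 CPM in siControl late 2-cell, at least 1770-fold lower. In amino acid and polyamine supply 16 of 44 rose and 12 fell (median -0.12, 12 and 19 in TPM). Odc1 and Sat1, which make and acetylate polyamines, rose by 2.26 and 2.60, and Phgdh, of serine synthesis, had 113 and 105 CPM in siControl morula, against 6.24 and 6.87 CPM in siControl late 2-cell.

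Some abundant genes barely moved in CPM. The narrowest intervals around 0 among genes with at least 100 CPM were of Srsf7, a splicing factor (1070 and 1160 CPM in siControl morula, 1030 and 1220 CPM in siControl late 2-cell, 95% interval of the log2 fold change -0.45 to 0.42), and Taf13, of TFIID (268 and 283 CPM in siControl morula, 291 and 271 CPM in siControl late 2-cell). Both fell in TPM with limma.

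WT 4-cell embryos gave a level at an intermediate time, in deposited TPM and without a test, since they belong to another experiment. Of the 4766 genes that fell, the 4-cell mean had passed the midpoint between the late 2-cell and morula means of log2(TPM + 1) in 66.6%. Of the 3822 genes that rose and were also higher in TPM, it had done so in 55.4%. The 4-cell mean lay beyond the morula mean, not between the stages, for 8.2% of the falls and 31.0% of the rises. Brdt had 2910 and 1980 TPM in siControl late 2-cell, 312 and 209 TPM in WT 4-cell and 21.8 and 8.57 TPM in siControl morula. Cytosolic ribosomal proteins held 59400 and 80000 TPM in siControl late 2-cell, 167000 and 179000 TPM in WT 4-cell and 250000 and 239000 TPM in siControl morula. Gata6 had 3.31 and 3.00 TPM in siControl late 2-cell, 3.23 and 7.10 TPM in WT 4-cell and 51.0 and 46.4 TPM in siControl morula, so that its rise lay after the 4-cell level.

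Some levels were lowest at the 4-cell stage. Of 4471 genes with at least 5 TPM in all 4 siControl libraries, 46 stood more than 4-fold lower in both WT 4-cell libraries than in each of them, and 3 (Tefm, Gm16513 and Bod1l, named after their values were seen) more than 4-fold higher. Of these, Bod1l did not pass between the siControl stages with all libraries but did without siControl late 2-cell replicate 2 (adjusted p = 0.0138, edgeR), and Gm16513 lost its call without siControl late 2-cell replicate 1 or either siControl morula library (adjusted p between 0.0704 and 0.204, edgeR). Pou5f1 had 13.9 and 9.45 TPM in siControl late 2-cell, 2.30 and 2.24 TPM in WT 4-cell and 44.3 and 34.2 TPM in siControl morula. The keratin gene Krt18 had 16.2 and 9.24 TPM in siControl late 2-cell, 2.06 and 0.94 TPM in WT 4-cell and 16.8 and 24.4 TPM in siControl morula, and its rise of 1.73 in CPM did not pass without siControl late 2-cell replicate 2 (1.39, adjusted p = 0.108, edgeR) or siControl morula replicate 2 (1.46, adjusted p = 0.0798, edgeR). Both genes are of the lineages of the blastocyst. Electroporation and experiment differ between these groups together with stage, so their parts cannot be told apart.

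Markers of other cells that a pool could hold had lower sums in siControl morula, and each set held tested members that did not pass. Of 25 cumulus and granulosa markers 11 were tested and 6 fell, with a summed TPM of 4.41 and 3.27 in siControl morula, against 36.3 and 35.0 in siControl late 2-cell, and 7, among them Amh and Fshr, had no count in any of the 4 libraries. Sperm markers summed to 7.29 and 6.5 TPM in siControl morula, against 110 and 143 TPM in siControl late 2-cell, with 3 of 9 tested lower and Acr, Smcp and Tssk2 without a count. Blood and immune markers summed to 53.4 and 55.3 TPM in siControl morula, against 2110 and 1210 TPM in siControl late 2-cell, with 6 of 11 tested lower. The alpha globin gene Hba-a2 had 19.1 and 16.4 CPM in siControl morula, against 244 and 245 CPM in siControl late 2-cell, and reads could be divided with its near-identical copy Hba-a1. The beta globin genes Hbb-bs, Hbb-bt, Hbb-b1 and Hbb-b2 had no count in any of the 4 libraries, and Ptprc, which encodes CD45 of leukocytes, had 85 counts over all 4. Lyz2, a lysozyme of macrophages, had 0.0256 and 0.203 CPM in siControl morula, against 312 and 2.05 CPM in siControl late 2-cell, a log2 fold change of -10.38 (adjusted p = 0.0473, edgeR). It was -4.11 without siControl late 2-cell replicate 1 (adjusted p = 0.0348, edgeR), and the call was lost without siControl morula replicate 1 (adjusted p = 0.270, edgeR) or replicate 2 (adjusted p = 0.199, edgeR). The part of other cells in the falls was not tested.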

How the data were processed

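RNA was measured in 2 siControl morula and 2 siControl late 2-cell libraries of 10 embryos each. The authors deposited, per gene and library, an expected count that was not normalised and a TPM scaled by transcript length, per the file headers. The submitters' processing notes list mm10, Bowtie2 2.4.5, deepTools, RSEM 1.3.3 and STAR 2.7.10 but give them no roles; filters on reads are not given in the sources used here. Groups were taken from the labels. Expected counts, as deposited by the authors, were rounded and fitted together in the 8 knockdown libraries (siControl and siPcgf5 at both stages), which share the spread (common coefficient of variation 0.46). In edgeR 4.0.16 under R 4.3.3, filterByExpr (minimum count 10) selected the genes, TMM set the library scales and each gene was tested (quasi-likelihood F test, two-sided, Benjamini-Hochberg over 16980 genes, threshold 0.05), and the procedure was tested on simulated data. The alternatives were DESeq2 size factors, library size alone, no filter, DESeq2 1.42.0, limma 3.58.1 on log2(TPM + 1), only the groups compared, a replicate block and leaving out each library.

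With summed counts of 22435872 to 48876604 per library, a group without a count could hold up to 3 counts, and folds against it use this floor. Floors cover counting error only, and PCR reads without molecular identifiers are not independent molecules. Intervals are built from the SE of edgeR, which includes the spread between libraries. The comparison, the lists and the pairs were chosen with earlier results of these data known, so lists are described by counts and medians without a test. Genes named are those with the 12 largest gains and losses in TPM, per list the 4 most abundant members and the 2 called with the smallest p in each direction, the pairs, the 6 abundant genes with intervals closest to 0, Pcgf5, Xist and stage markers. Others are said to be chosen otherwise or illustrate a count. Promoters are from RefSeq (GRCm38.p6), matched by symbol or synonym.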

Additional observations from a re-analysis of the deposited data

How the results depend on the processing

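Of 177 genes named in the text and recomputed under 11 alternatives, 171 passed in the fit reported. Of these, 16 fell short of the threshold under at least 1 alternative, and 4 others (Zfp352, Srsf7, Taf13 and Bod1l) passed in the same direction under at least 1. The alternatives that turned a recomputed gene round were on other scales: Wee1 (-0.03), H1f0 (-0.04) and Gm16513 (-0.04) had no rise with limma on log2(TPM + 1), where Ldha (-0.93) and Tbp (-0.95) passed as lower, and Tbp passed as lower with library size alone (-0.60). Limma changes the scale, the pseudocount and the test together, and the cause was not tested. It called 2452 genes higher and 7388 lower in siControl, and 2558 higher in siPcgf5, against 4220, 4766 and 4162 with edgeR. The other alternatives kept each count within 1.5 times: in siControl the rises ran from 2876 (library size alone) to 4218 (no filter) and the falls from 4364 (replicate block) to 6280 (library size alone). Without 1 siControl library the rises ran from 3396 to 4041 and the falls from 3436 to 4348, and without 1 siPcgf5 library from 3296 to 3509 and from 3593 to 3856. The lone library of a stage is then assumed to vary like the other groups.

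Replicate numbers did not mark a pairing: the deviations of replicate 1 from the group means correlated between -0.038 and 0.007 across groups. With the replicate number as a block, 4045 genes rose and 4364 fell in siControl, and 3978 and 4433 in siPcgf5.

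Depth limits the low genes: below the filter no fold was given, and siControl late 2-cell, with 22435872 and 33757884 counts, was shallower than siControl morula.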
